A study of Homo sapiens with 10 samples.

Results

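OVOL1 overexpression in the mesenchymal prostate cancer line PC3-EMT14 was followed across all 23170 gene rows and 37557 isoform rows of the comparison between PC3-EMT14 and PC3-EMT14-OVOL1. RNA-seq covered 3 samples of each line, 6 of the 10 samples of the series. PC3 is a human prostate cancer cell line, and PC3-Epi is a luciferase-positive population of it that was selected for brightness and an epithelial shape. PC3-EMT14 is a mesenchymal population isolated after PC3-Epi cells shared a culture with IL4-treated CD14+ macrophages, and it was separated from them by repeated trypsin passage. PC3-EMT14-OVOL1 is PC3-EMT14 transduced with a lentivirus that carries OVOL1 and then selected, and both groups carry the luciferase vector of the parent line. The labels name PC3-EMT14, which the study calls parental and uses as the control. They name no empty-vector line, so the transduction and selection cannot be told apart from OVOL1. PC3-EMT14-OVOL2 (2 samples) and PC3-Epi (2 samples) are given beside single genes only. Each of them was set against the same PC3-EMT14 libraries. The labels do not say whether samples of a group came from separate cultures, while the study speaks of biological replicates of each line.

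Values are FPKM, fragments scaled by transcript length and, for each library, by upper-quartile normalization. The processed tables used here hold 1 pooled value per group, and no gene has a spread between samples, an error or a test here. Every difference below is a description of 2 pooled values, and "higher" and "lower" say nothing of how replicates varied. The reads were not analysed here, and the tables do not give the depth of the libraries. Where a pair of values is given with no group named, the first is PC3-EMT14 and the second PC3-EMT14-OVOL1. A gene was considered when both values were above 0 and the higher one reached 1 FPKM, and it was counted as past 2-fold when the ratio was at least 2 or at most 0.5. A gene below 1 FPKM in 1 line was thus considered only through its level in the other, and the list counts include such genes.

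OVO-like proteins are zinc-finger transcription factors of developing skin and other epithelia, and OVOL1 and OVOL2 are known for holding cells in an epithelial state. ZEB1, ZEB2, SNAI1 and SNAI2 act in the opposite direction by binding E-boxes in the promoters of junction genes and repressing them. ESRP1 and ESRP2 are splicing regulators of epithelial cells, which decide the isoforms of adhesion and cytoskeleton genes.

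Of 12111 genes considered, 249 (2.06%) were at least 2-fold higher with OVOL1 and 149 (1.23%) at least 2-fold lower. The list counts below are to be read beside these shares, and a short list with no gene lower is not set apart by that. The largest ratios were almost all on the higher side. At least 8-fold separated the groups for 55 higher and 6 lower genes. The median log2 ratio of all considered genes was -0.0018, and 95% of them lay between -0.74 and 0.85. The range was wider at low levels, from -0.88 to 1.07 for the 5477 genes with a mean of 1 to 10 FPKM and from -0.48 to 0.55 for the 5653 genes between 10 and 100 FPKM. All 12 housekeeping genes were within 2-fold, with log2 ratios from -0.11 to 0.34.

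**Figure D1:**
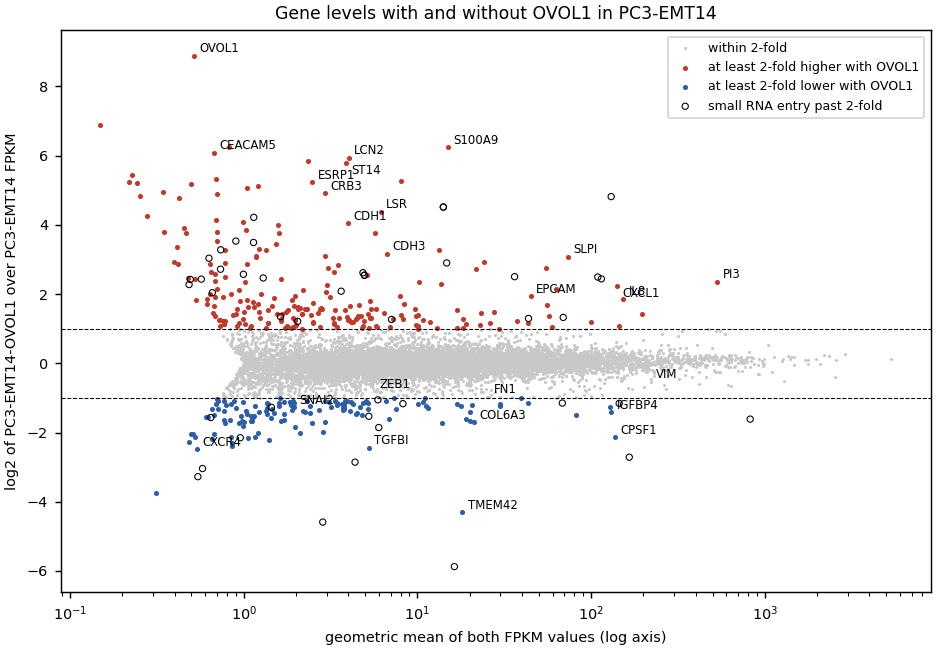
Log2 ratio of PC3-EMT14-OVOL1 over PC3-EMT14 FPKM (vertical) against the geometric mean of both FPKM values (horizontal, log axis), 1 point per considered gene (12111), with dashed lines at 2-fold and no error since each group has 1 pooled value. S100A9, LCN2, ST14 and CRB3 stand far above the cloud, while open circles mark the small RNA entries past 2-fold (28 higher and 16 lower).

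OVOL1 itself was nearly absent from PC3-EMT14 (0.0238 FPKM) and reached 11.3 FPKM in the transduced line, the largest log2 ratio of all considered genes (8.89). In PC3-Epi it stood at 4.25 FPKM, so the level with the lentivirus was above that of the epithelial line. OVOL2 was low, at 0.374 and 0.562 FPKM, against 9.91 FPKM in PC3-Epi and 831 FPKM in PC3-EMT14-OVOL2. The RNA levels listed for the 2 factors in their respective lines therefore differed widely (11.3 against 831 FPKM). They came from different constructs, and these values do not give amounts of protein.

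The EMT transcription factors considered were mostly lower with OVOL1, by differing amounts, and not all past 2-fold. The list has 14 genes, of which 13 had an entry and 6 were considered. At least 2-fold higher were 2 (OVOL1 included), and 2 were lower. A log2 ratio below 0 was seen in 4 of the 6, and the 2 above 0 were SNAI1 and OVOL1 itself, which was introduced. ZEB1 was listed at 7.43 and 4.25 FPKM, a log2 ratio of -0.81 that stays within 2-fold, against 0.130 FPKM in PC3-Epi and 1.77 FPKM with OVOL2. SNAI2 (Slug) went from 3.96 to 1.47 FPKM between the lines, and TCF4, a basic helix-loop-helix E protein, from 2.38 to 1.08 FPKM. SNAI1 (Snail) differed the other way, at 1.32 and 2.67 FPKM. TWIST1 was nearly equal at 5.57 and 5.26 FPKM, and ZEB2 was close to absent from both lines (0.142 and 0.0531 FPKM).

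Epithelial transcription factors were higher in part. Of 14 on the list, 10 were considered, 3 were at least 2-fold higher and none was at least 2-fold lower. With 2.06% of all considered genes higher and 1.23% lower, the absence of lower ones does not set the list apart. Among the 3 higher were EHF, an ETS factor of glandular epithelium (0.450 and 2.30 FPKM), and GRHL1 of the grainyhead family (1.35 and 2.93 FPKM). GRHL2, a sister gene that maintains junctions, did not reach 1 FPKM in either line (0.104 and 0.556 FPKM) and stood at 15.0 FPKM in PC3-Epi. Of 12 splicing regulators considered, ESRP1 alone was past 2-fold, at 0.406 and 15.2 FPKM, beside 84.6 FPKM in PC3-Epi. ESRP2 was at 5.58 and 9.31 FPKM.

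Differences of at least 2-fold among genes of cell junctions were limited to selected members. Log2 ratios above 0 were more widespread in 2 of the lists, in 14 of 15 tight junction and 8 of 11 desmosome genes considered. They were seen in 4 of 9 adherens junction and 3 of 6 gap junction genes. CDH1 (chr16:68771195-68869444 on hg19), which encodes E-cadherin, stood at 0.981 and 16.2 FPKM, and CDH3, P-cadherin, at 2.23 and 19.9 FPKM. CDH1 remained below the 50.6 FPKM of PC3-Epi and the 39.2 FPKM of the OVOL2 line. The mesenchymal cadherin gene CDH2 was at 17.6 and 13.3 FPKM. Of 9 adherens junction genes considered, CDH1 and CDH3 were past 2-fold and none was lower by that much. The shares over all considered genes were 2.06% higher and 1.23% lower. CTNNA1, the α-catenin gene, was listed near 0 in both lines (0.141 and 0.209 FPKM), which is the known state of PC3 cells. CTNND1 shares its entry with TMX2, and that entry was at 113 and 121 FPKM.

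In the tight junction list, 4 of 15 genes considered were at least 2-fold higher and 11 were within 2-fold. The median log2 ratio of the list was 0.42, against -0.0018 for all genes. TJP3, a scaffold protein, stood at 1.006 and 3.84 FPKM, CLDN7 at 11.6 and 28.6 FPKM, OCLN, the gene of occludin, at 2.81 and 6.44 FPKM, and INADL, a polarity scaffold, at 1.91 and 3.98 FPKM. TJP1, which encodes ZO-1, was at 13.0 and 13.8 FPKM, and CLDN4 was already abundant in PC3-EMT14 (265 and 277 FPKM). LAD1, an anchoring-filament protein grouped with the desmosome genes, was 9.72-fold higher (4.25 and 41.3 FPKM), the other 10 of the 11 considered in that list being within 2-fold. In the gap junction list 2 of 6 genes were past 2-fold, among them the connexin gene GJB5 (0.782 and 2.89 FPKM).

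The machinery of apical polarity had a similar shape, with 4 of 16 considered genes at least 2-fold higher and none lower. Over all considered genes the shares were 2.06% and 1.23%. Of the 4, CRB3, MYO5B and AP1M2 were below 1 FPKM in PC3-EMT14 and were considered only through their level with OVOL1. CRB3 (chr19:6464260-6481798 on hg19), whose protein marks the apical membrane, was listed at 0.531 FPKM without OVOL1 and 16.04 FPKM with OVOL1, a ratio of 30.2. It reached 41.5 FPKM with OVOL2 and 49.1 FPKM in PC3-Epi. MYO5B, a motor of apical vesicles (0.390 and 1.48 FPKM), AP1M2, an adaptor of basolateral sorting (0.421 and 1.09 FPKM), and TMEM30B, a flippase subunit (2.85 and 9.95 FPKM), were the other 3. RAB25 was near 0 in both lines (0.0554 and 0.108 FPKM), and PARD3 was at 35.3 and 37.7 FPKM.

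The E-box letters CACCTG or CAGGTG and the core CCGTTA or TAACGG of the OVO motif were searched on both strands in the 250 bases before each start site of the RefSeq promoter table (GRCh38.p14). E-boxes were present in 17.5% of its 35116 promoters and the OVO core in 2.45%. The stretches printed here were placed on GRCh37, the assembly of the deposited hg19 loci, by exact match of the sequence, and were chosen after the search for the motifs they hold. Capitals mark the motifs, and each line runs 5′ to 3′ on the strand of its gene. CRB3 had 5 E-boxes in its window, 1 of which directly follows the single OVO core (chr19:6464120-6464149, plus strand). CLDN7 had 4, of which the 2 nearest to the start are shown (chr17:7165798-7165827, minus strand). ZEB1 has 7 tabulated promoters, and the window of the promoter shown held an OVO core (chr10:31608485-31608514, plus strand). This core and the bases before it match the end of a forward primer of the paper's ChIP assay on ZEB1. That primer lies downstream of the start site the paper counts from, and the paper reports its product as enriched with OVOL2. The paper places its putative OVOL2 site closer to that start than this primer. The core printed here is therefore not the site the paper names. These 3 lines are limited to 30 bases because each overlaps an exon annotated in GENCODE.
CRB3: actggggtcCCGTTACAGGTGcgcccacag
CLDN7: tacatatactCAGGTGcgcccCACCTGtcc
ZEB1: ctccctggaCCGTTAgccggcgccgacgcc

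The 3 whole windows of 250 bases below overlap no annotated exon. ARHGEF16, a guanine nucleotide exchange factor chosen after its values were seen (0.434 and 5.87 FPKM), had 3 E-boxes (chr1:3370979-3371228, plus strand). MMP15, a membrane-anchored metalloproteinase (0.601 and 1.85 FPKM), had 2 (chr16:58059408-58059657, plus strand). IGFBP4, which binds insulin-like growth factors and was lower with OVOL1, had an OVO core and no E-box (chr17:38599452-38599701, plus strand).
ARHGEF16: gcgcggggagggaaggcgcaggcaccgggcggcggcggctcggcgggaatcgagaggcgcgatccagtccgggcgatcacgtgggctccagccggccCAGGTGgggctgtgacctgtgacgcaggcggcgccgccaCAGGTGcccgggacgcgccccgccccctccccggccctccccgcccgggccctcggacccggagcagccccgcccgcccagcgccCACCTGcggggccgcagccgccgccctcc
MMP15: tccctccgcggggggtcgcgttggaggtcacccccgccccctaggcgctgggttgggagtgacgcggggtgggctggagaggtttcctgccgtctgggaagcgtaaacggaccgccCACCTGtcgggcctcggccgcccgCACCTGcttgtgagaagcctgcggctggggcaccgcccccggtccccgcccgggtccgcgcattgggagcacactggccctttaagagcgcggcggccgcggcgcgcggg
IGFBP4: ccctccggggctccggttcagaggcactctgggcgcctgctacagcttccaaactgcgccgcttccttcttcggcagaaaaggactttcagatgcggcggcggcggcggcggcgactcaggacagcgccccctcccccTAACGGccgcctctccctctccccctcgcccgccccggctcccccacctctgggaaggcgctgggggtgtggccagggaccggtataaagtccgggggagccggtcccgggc

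A comparison of motif shares between gene sets is void by coverage, because the table held promoters for 155 of the 249 higher genes (62.2%), 96 of the 149 lower genes (64.4%) and 78.7% of all considered genes. Among the promoters found, an E-box stood in 36.2% of 218 for the higher genes, 16.8% of 184 for the lower genes and 15.8% of 14109 for all considered genes. The OVO core stood in 2.29%, 3.804% and 3.11%. The median GC content of the windows was 62%, 55.6% and 64.8%, respectively, and its part in these shares was not tested. A match says only that the letters are present.

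**Figure D2:**
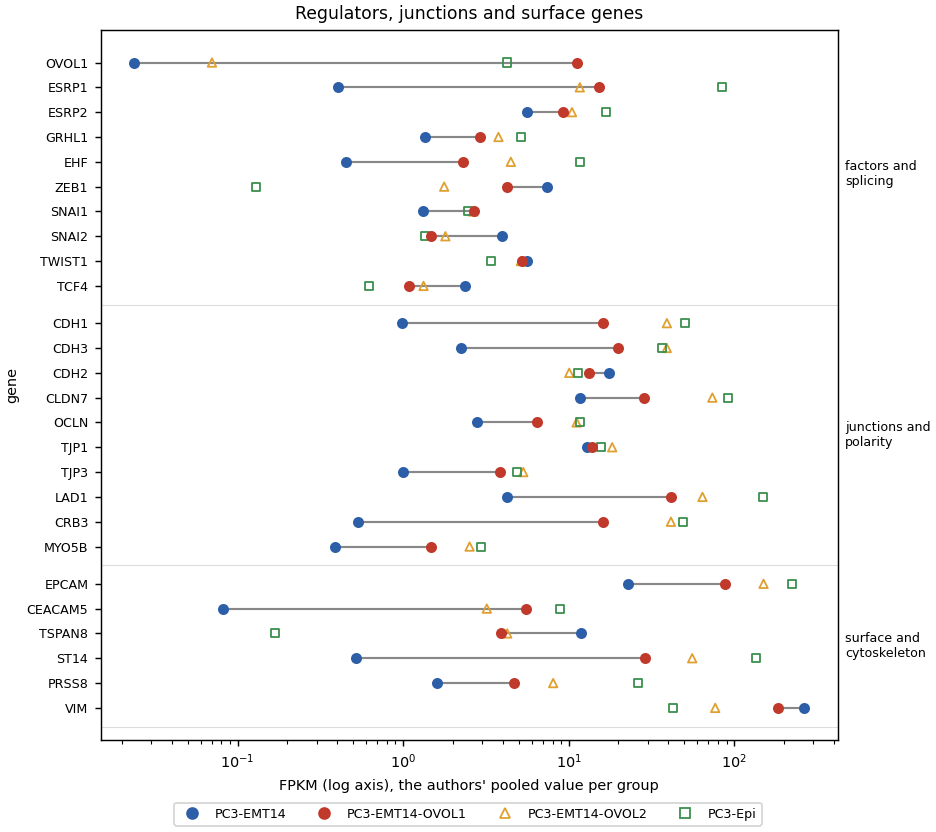
FPKM on a log axis (horizontal) for regulators, junction and polarity genes, and surface and cytoskeleton genes (rows), with filled circles for PC3-EMT14 and PC3-EMT14-OVOL1 joined by a line and open symbols for PC3-EMT14-OVOL2 and PC3-Epi; each symbol is 1 pooled value with no error. CDH1, CRB3 and ST14 are far to the right with OVOL1 but below PC3-Epi, while TWIST1 and TJP1 hardly separate.

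The epithelial surface was the group with the largest share past 2-fold on the higher side among the junction, polarity and surface lists. Of 11 surface adhesion genes considered, 6 were at least 2-fold higher and 1 lower, with a median log2 ratio of 1.00. EPCAM, an adhesion molecule of carcinoma cells, was at 23.0 and 87.6 FPKM, and CEACAM5, the carcinoembryonic antigen, at 0.0817 and 5.53 FPKM. CEACAM6, PROM2 and TMC4 had higher levels of 1.79 to 3.86 FPKM with OVOL1. PROM2 lies at the edge of the rule, with a log2 ratio of 1.00. TSPAN8, a tetraspanin, was lower (11.95 and 3.90 FPKM), and it was at 0.169 FPKM in PC3-Epi.

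Serine proteases and their inhibitors followed, with 4 of 12 considered higher and 1 lower. ST14 (chr11:130029682-130080257 on hg19), the membrane protease matriptase, was listed at 0.520 and 28.9 FPKM, its partner PRSS8, prostasin, at 1.60 and 4.71 FPKM, and PRSS22 at 0.331 and 1.47 FPKM. SLPI, a secreted inhibitor of leukocyte elastase, stood at 25.4 and 215 FPKM, above the 157 FPKM of PC3-Epi. KLK10, a kallikrein, was lower (6.13 and 2.82 FPKM). The matriptase inhibitors SPINT1 (29.0 and 54.0 FPKM) and SPINT2 (178 and 233 FPKM) were within 2-fold.

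Keratins of simple epithelium were expressed in both lines and were within 2-fold, KRT8 at 85.8 and 128 FPKM, KRT18 at 115 and 156 FPKM and KRT19 at 656 and 608 FPKM. Among 10 considered keratins 4 were at least 2-fold higher, namely KRT15 (28.7 and 64.7 FPKM), KRT6A (1.17 and 7.94 FPKM), KRT16 (0.385 and 2.82 FPKM) and KRT4 (0.258 and 1.61 FPKM), which are keratins of stratified epithelium. KRT81 was listed at 1714 FPKM in PC3-EMT14 and at 0 with OVOL1, where the estimate was flagged as skipped for too much data. This 0 is not a level, and no ratio was made from it.

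On the mesenchymal side, no gene of the cytoskeleton list was past 2-fold among the 7 considered, a count that 1.23% of all considered genes being lower does not set apart. VIM, vimentin, stood at 265 and 183 FPKM, compared with 76.9 FPKM with OVOL2 and 42.5 FPKM in PC3-Epi. Log2 ratios in this list ran from -0.53 to 0.14. In bulk RNA, fewer mesenchymal cells and less mesenchymal RNA in each cell cannot be told apart.

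Matrix genes were lower more widely. Of 14 considered, 4 were at least 2-fold lower, 1 was at least 2-fold higher, and 12 had a log2 ratio below 0, with a median of -0.62. TGFBI, a matrix adhesion protein named for its induction by TGF-β, was at 12.2 and 2.25 FPKM. HAPLN1, a hyaluronan link protein, stood at 5.66 and 1.43 FPKM, COL6A3, a chain of collagen VI, at 38.2 and 11.8 FPKM, and FBN1, fibrillin, at 6.45 and 2.84 FPKM. FN1, fibronectin, was just inside 2-fold (36.0 and 18.4 FPKM), and in PC3-Epi it was at 33.8 FPKM, close to PC3-EMT14. THBS1, thrombospondin, was higher (6.16 and 15.8 FPKM), with 126 FPKM in PC3-Epi. Among matrix proteases, MMP16 was lower (2.84 and 1.24 FPKM), MMP15 was higher, and MMP14, a membrane-type metalloproteinase, was at 115 and 58.2 FPKM. PLAU, the urokinase gene, carried the same skipped-estimate flag as KRT81 and is not compared.

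Calcium-binding S100 genes and secreted defence proteins held some of the largest differences in level. S100A9 (chr1:153330330-153333503 on hg19), a subunit of calprotectin, was listed at 1.72 and 130.03 FPKM, a log2 ratio of 6.24. Its usual partner S100A8 did not reach 1 FPKM (0.0263 and 0.355 FPKM). S100A14 was at 1.30 and 49.9 FPKM, S100P at 21.0 and 143 FPKM, and S100A5 at 1.04 and 2.54 FPKM, the other 8 of 12 considered being within 2-fold. S100A4, often used as a mesenchymal marker, was at 60.6 and 59.2 FPKM. LCN2 (chr9:130911732-130915734 on hg19), the siderophore-binding lipocalin, stood at 0.515 and 31.6 FPKM. PI3, the elastase inhibitor elafin, had the largest gain in FPKM of any gene other than small RNA entries, from 234 to 1203 FPKM. In PC3-Epi it was at 265 FPKM, near PC3-EMT14.

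Chemokines and cytokines were the list with the most genes past 2-fold. Of 14 considered, 7 were at least 2-fold higher, 3 at least 2-fold lower and 4 within 2-fold, with a median log2 ratio of 1.00. The neutrophil chemokines CXCL1 (65.3 and 306 FPKM) and IL8 (79.7 and 291 FPKM) were the most abundant of the 7. CXCL2 (2.58 and 8.33 FPKM), CXCL3 (4.01 and 15.6 FPKM), CXCL16 (6.20 and 16.2 FPKM), CSF2, which encodes GM-CSF (4.52 and 23.1 FPKM), and IL6 (1.32 and 8.22 FPKM) were the others. PC3-Epi had less than the OVOL1 line for CXCL1 (73.7 FPKM), CSF2 (3.61 FPKM), CXCL3 (2.10 FPKM) and IL6 (2.55 FPKM). IL8 in PC3-Epi (204 FPKM) lay between PC3-EMT14 and the OVOL1 line. Lower with OVOL1 were IL11 (1.74 and 0.546 FPKM), CXCR4, the receptor of CXCL12 (1.27 and 0.226 FPKM), and CXCR7, its second receptor (5.58 and 2.61 FPKM). IL1B was abundant in both lines (718 and 765 FPKM).

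**Figure D3:**
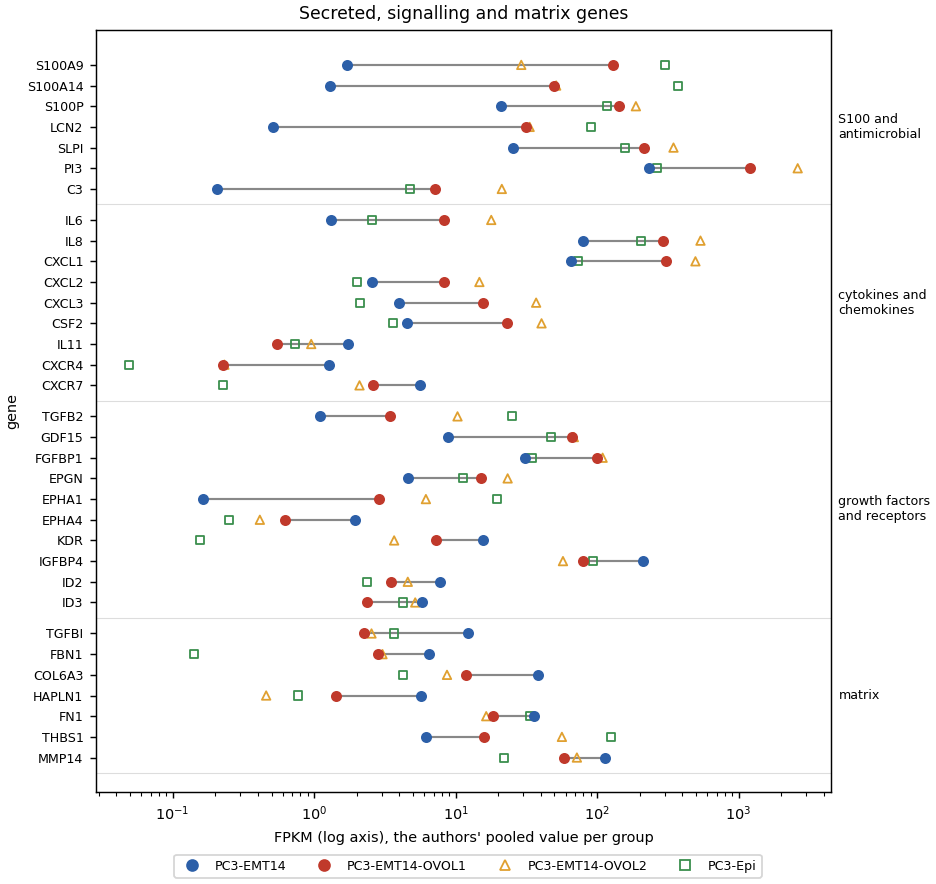
FPKM on a log axis (horizontal) for secreted, signalling and matrix genes (rows), drawn as in the plot of regulators and junction genes, with 1 pooled value per group and no error. PI3, CXCL1, CSF2 and FGFBP1 have PC3-EMT14 and PC3-Epi close together and both OVOL lines to the right, whereas COL6A3 and CXCR4 are to the left of PC3-EMT14 with OVOL1.

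In the TGF-β and BMP pathway, 2 of 22 genes considered were at least 2-fold higher and 4 lower, and the median log2 ratio was -0.04. The ligands past 2-fold on the higher side were TGFB2 (1.10 and 3.44 FPKM) and GDF15, a distant member of the family (8.80 and 66.5 FPKM). BMP6 was lower (2.88 and 1.31 FPKM), and LTBP1, which stores latent TGF-β in the matrix, sat at the edge of the rule (55.5 and 27.7 FPKM). The receptors TGFBR1 (4.82 and 4.97 FPKM) and TGFBR2 (42.7 and 33.9 FPKM) were within 2-fold, as were SMAD2, SMAD3 and SMAD4. ID2 (7.78 and 3.49 FPKM) and ID3 (5.82 and 2.37 FPKM), direct targets of BMP signalling, were lower, and ID1 was at 114 and 72.0 FPKM. With OVOL2 ID3 was at 5.18 FPKM.

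Among ERBB and FGF genes, 3 of 16 considered were higher and 1 lower. EPGN, epigen, an EGF receptor ligand, was at 4.62 and 15.1 FPKM, and FGFBP1, a carrier of FGFs, at 31.0 and 99.8 FPKM. AREG, amphiregulin, has a pair of nearly identical entries that can share reads, 1 past 2-fold (16.4 and 46.0 FPKM) and 1 just within it (18.5 and 36.8 FPKM). FGF1 was lower (1.87 and 0.531 FPKM). FGFR2 was not expressed at a level that allows a comparison (0.0405 and 0.0251 FPKM). Vascular and ephrin receptors were mostly lower where they differed, with 4 of 11 considered lower and 1 higher. KDR, the VEGF receptor, was at 15.7 and 7.26 FPKM, TIE1 at 1.40 and 0.310 FPKM, EPHA4 at 1.94 and 0.619 FPKM and EPHA5 at 1.98 and 0.625 FPKM, while EPHA1 was higher (0.164 and 2.89 FPKM). IGFBP4 was the single gene past 2-fold of the 5 IGF-related genes considered, at 213 and 79.8 FPKM. In the Wnt and Notch list, 12 of 14 considered were within 2-fold, AXIN2 was lower (1.09 and 0.2501 FPKM) and JAG2 higher (4.08 and 8.50 FPKM).

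Lists on the state of the cells were read beside the shares over all considered genes, 2.06% higher and 1.23% lower, and counts this small do not set a list apart. None of 20 cell cycle genes was past 2-fold, and log2 ratios ran from -0.72 to 0.45. Small ratios above 0 were seen in 18 of the 20, with a median log2 ratio of 0.19, while CDKN1A and CDKN2B were below 0. Of 16 interferon-stimulated genes, OAS1 was higher (7.07 and 14.2 FPKM) and OASL lower (15.7 and 7.75 FPKM), both near the edge of the rule. Of 13 hypoxia and glycolysis genes, CA9, carbonic anhydrase IX, alone was past 2-fold (0.391 and 3.87 FPKM).

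**Figure D4:**
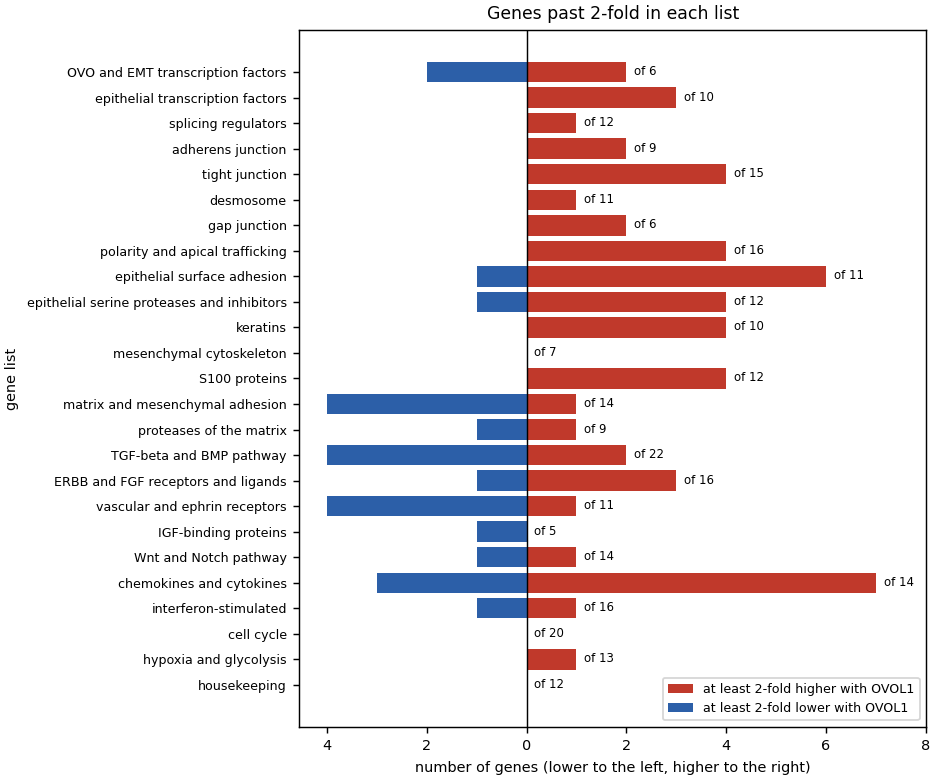
Number of genes in each list (rows) at least 2-fold higher with OVOL1 (bars to the right) or lower (bars to the left), with the number of genes considered beside each bar; the values are counts without error. Chemokines and cytokines have 7 and 3 of 14, matrix genes 1 and 4 of 14, and the cell cycle none of 20.

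The labelled cell type was checked against markers. KLK2 and KLK3, secreted proteases of the prostate, were at 0 in both lines, and HOXB13, a prostate lineage factor, was expressed (87.8 and 67.6 FPKM). Of 14 macrophage markers, CD68 alone reached 1 FPKM (53.0 and 51.2 FPKM), and the defining genes CD14 (0.0842 and 0.0510 FPKM), CD163 and PTPRC were near 0. Their summed level was 53.4 FPKM in PC3-EMT14 and 51.7 FPKM with OVOL1. Of 8 fibroblast markers COL1A1 alone was considered (3.61 and 2.55 FPKM), with a sum of 4.33 and 2.83 FPKM. Of 7 endothelial markers KDR, PECAM1 and ESAM were expressed, VWF, CDH5 and CLDN5 stayed below 0.13 FPKM and EMCN was at 0 in both lines. Their sum was 27.0 and 15.4 FPKM, most of it from KDR, PECAM1 and ESAM, and its part in the lower vascular receptors was not tested.

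Isoform shares were compared in 4382 genes with at least 2 isoforms and a summed level of 2 FPKM or more in both lines. In 78 of them (1.78%) the share of some isoform differed by 20 percentage points or more, and the median of the largest difference per gene was 2.40 points. Isoforms carry only TCONS identifiers in these tables, so no exon is named. A list of 30 genes was taken mostly from genes the study names for isoform changes in these same samples, so it is not independent evidence. The list had 29 genes that could be measured. Of these, 9 differed by 20 points or more and the median was 11.6 points. The study names all of these 9 except ARHGEF11, so the count follows in part from how the list was chosen.

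CD44, the hyaluronan receptor, was among them with nearly the same total (42.6 and 45.9 FPKM). Its isoform TCONS_00005418 held 93.9% of the total in PC3-EMT14 and 61.9% with OVOL1, compared with 11.5% in PC3-Epi. TCONS_00005417 went the other way, from 5.0% to 28.1%, and TCONS_00005416 from 0.92% to 9.2%. In ENAH, an actin regulator, TCONS_00003514 held 15.7% and 43.8%, with 66.1% in PC3-Epi and totals of 13.4 and 13.99 FPKM. In EPB41L5, a FERM-domain protein, TCONS_00019103 held 45.2% and 77.5%, with 92.4% in PC3-Epi. In SLC44A2, a choline transporter, TCONS_00016293 held 17.0% and 40.4%, with 98.4% in PC3-Epi. With OVOL1 the share in each of these 4 genes lay between the values of PC3-EMT14 and PC3-Epi. ARHGEF11, IP6K2, LGALS8, PRKAR1B and CBWD1 were the other 5, and not all of them did so. In ARHGEF11, TCONS_00003085 held 51.1% and 75.2%, with 58.8% in PC3-Epi. In LGALS8, TCONS_00001823 held 20.2% and 0%, with 3.24% in PC3-Epi. In CBWD1, TCONS_00035195 held 71.2% and 38.3%, with 67.6% in PC3-Epi.

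**Figure D5:**
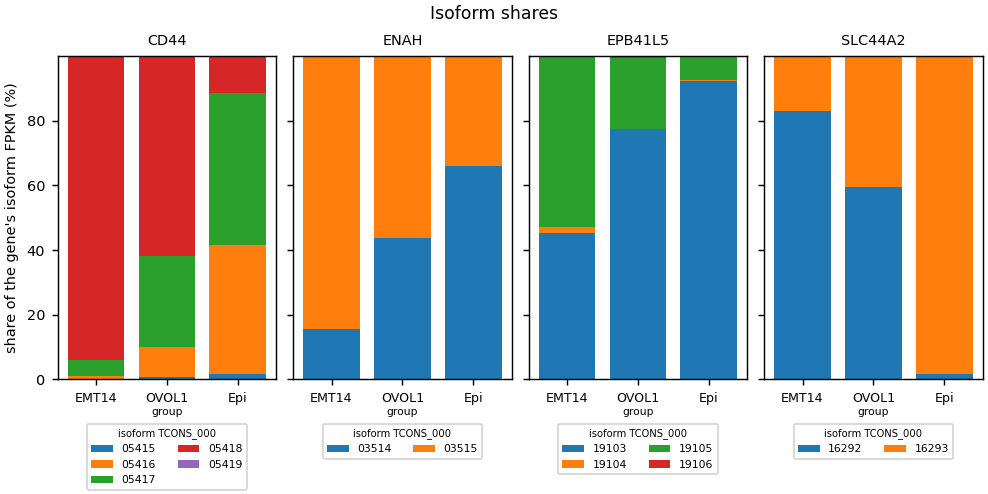
Share of each isoform in the summed isoform FPKM of its gene (vertical, %) in PC3-EMT14, PC3-EMT14-OVOL1 and PC3-Epi for CD44, ENAH, EPB41L5 and SLC44A2; colours are isoforms, and bars have no error. The isoform holding 93.9% of CD44 in PC3-EMT14 holds 61.9% with OVOL1 and 11.5% in PC3-Epi.

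The 12 largest share differences were mostly in other genes. In TMEM42, CPSF1, ZNF207 and NOP56 they came from a microRNA listed as an isoform of the host gene. TMEM42 was listed at 80.5 and 4.09 FPKM, but its own transcript was at 3.27 and 4.09 FPKM and MIR564 took up the rest. The remaining 8 were ASTN2, C1orf106, SLC37A2, PRKAR1B, DNM2, PLAGL1, NRGN and LAMA4, the last with a failed estimate. C1orf106 was at least 2-fold higher as a gene (5.33 and 12.8 FPKM), and its isoform TCONS_00001538 held 21.97% and 74.4%, with 75.3% in PC3-Epi.

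Other genes at the extremes were low in one line. The 15 largest ratios also held CCDC64B (0.0137 and 1.62 FPKM), FXYD3, a regulator of the sodium pump (0.308 and 17.8 FPKM), NPNT, a matrix ligand of integrins (0.109 and 4.39 FPKM), STEAP4, SLC6A14, ATP2C2, C1orf210 and LOC728643. The 15 smallest held 6 small RNA entries beside TMEM42, NELL2 (1.14 and 0.0851 FPKM), CLEC2B, SEPP1, CYP2B6, REG4, TGFBI, CXCR4 and TIE1. Genes at low levels depend on how values near 0 are treated. With 1 FPKM added to both values, AP1M2, CEACAM6, GRHL1, INADL, JAG2, MMP15, MYO5B, OAS1, OCLN, PROM2, PRSS22, S100A5 and SNAI1 were no longer 2-fold higher, and AXIN2, BMP6, CXCR4, CXCR7, CYP2B6, EPHA4, EPHA5, FBN1, FGF1, ID2, IL11, KLK10, LTBP1, MMP16, NELL2, OASL, TCF4 and TIE1 no longer 2-fold lower. Of the 398 genes past 2-fold, 109 of the higher ones were below 1 FPKM in PC3-EMT14 and 63 of the lower ones below 1 FPKM with OVOL1. A further 86 genes were listed at 0 in one line and at 1 FPKM or more in the other, of which 82 were small RNA entries such as SNORD63 and MIR31. The 4 others were KRT81, PLAU, C10orf55 (all skipped estimates) and the pseudogene P2RX6P (1.87 FPKM in PC3-EMT14). Small RNAs also made up 7 of the 10 largest gains and 6 of the 10 largest losses in FPKM. The 3 gains outside them were PI3, TPT1 (2616 and 3166 FPKM) and RPS24, and the losses were KRT81, PLAU, TMSB10 (2906 and 2216 FPKM) and MSMP (1551 and 1084 FPKM).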

How the data were processed

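RNA-seq was performed on PC3-EMT14 (3 samples) and PC3-EMT14-OVOL1 (3 samples), with groups taken from the sample titles. Per the study's methods, the authors read paired ends, aligned them to the hg19 transcriptome with TopHat and compared pairs of groups with Cuffdiff, using upper-quartile normalization and corrections for multi-mapped reads and sequence bias. The deposited FPKM values are 1 pooled estimate per group and table. The authors' fold change, test statistic, p-value and q-value columns were not used. The status column was read only to flag failed or skipped estimates. The number of unused per-sample columns was 0.

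Ratios, counts and isoform shares were computed from FPKM without a pseudocount in Python 3.11.15 with numpy 2.4.6 and pandas 2.3.3, and plots were drawn with matplotlib 3.10.9. No test was run, since the columns used hold 1 value per group and the reads were not analysed here. PC3-EMT14 levels in the OVOL2 and PC3-Epi tables were 0.99 and 1.02 times those used here (medians), so levels set across tables are close to 1 scale. Locus starts are counted from 1 on hg19.

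The members and the gene lists were chosen with earlier results of these data known. Named genes are OVOL1, OVOL2, list members past 2-fold, 20 defining genes, the 15 largest and 15 smallest ratios, the 10 largest gains and losses in FPKM and the 12 largest isoform share differences. Other genes, such as list members given for contrast, were chosen after their values were seen. Alternatives covered the fold, floor, pseudocount, scaling, isoform sums and the other table that holds PC3-EMT14-OVOL1. Some list members past 2-fold are not reported here by name, though the counts include them.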

Additional observations from a re-analysis of the deposited data

How the results depend on the processing

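The processed tables hold 1 pooled value per group, so leaving out each replicate in turn could not be run on them, and they give no counting error or depth. The reads were not analysed here. No paired analysis was possible because the columns of these tables carry no replicate values. The counts of 249 higher and 149 lower genes depended on the thresholds: 523 and 464 at 1.5-fold, 101 and 26 at 4-fold, 929 and 1240 with no floor, 114 and 62 with a floor of 5 FPKM, and 155 and 59 with a pseudocount of 1 FPKM. That pseudocount left 107 of 145 looked-up genes past 2-fold and moved the log2 ratio of 68, turning none. The share of higher among genes past the fold was 62.6% in the counts reported, 53.0% at 1.5-fold, 79.5% at 4-fold, 72.4% with the pseudocount of 1 FPKM and 42.8% with no floor, where genes near 0 enter. A pseudocount of 0.1 FPKM, centring on the median ratio, division by total FPKM, the sum of isoforms and the other table with PC3-EMT14-OVOL1 gave 235 to 250 higher and 142 to 171 lower genes. The 2 alternatives for these gene counts that were chosen after seeing the data left out small RNAs. Without small RNA entries and failed or skipped estimates, 221 and 133 genes remained, and sums without small RNA isoforms gave 220 and 129. The latter turned the log2 ratio of TMEM42 to 0.32, of CPSF1 to 0.21, of REXO1 to 0.17 and of ZNF207 to 0.050. The 78 genes with an isoform share difference became 410 at 10 points, 26 at 30 points, 123 with a sum of at least 1 FPKM and 39 with at least 5 FPKM. They were 72 without failed estimates and 72 without small RNA isoforms, both alternatives chosen after seeing the data.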

Other observations

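The genes in this section were looked at after their values were seen, and none was tested. On chromosome 4, the stretch from IL8 to the second AREG entry (chr4:74606275-75490485 on hg19) held 15 entries, of which 9 were considered. At least 2-fold higher with OVOL1 were 7, and none was at least 2-fold lower. The shares over all considered genes were 2.06% higher and 1.23% lower, so the absence of lower ones does not set the stretch apart. Its ends were placed at genes already seen to be higher, so the count of 7 follows in part from that choice. Besides IL8, CXCL1, CXCL2, CXCL3, EPGN and AREG, the chemokine gene CXCL6 was higher (41.1 and 85.9 FPKM). The neighbours PF4 (0.424 and 0.695 FPKM), CXCL5 (0.596 and 0.764 FPKM) and EREG (0.410 and 0.446 FPKM) did not reach 1 FPKM, and MTHFD2L, a mitochondrial enzyme gene between them, was at 4.34 and 2.91 FPKM. In PC3-Epi, CXCL2 (2.01 FPKM), CXCL3 (2.10 FPKM) and CXCL6 (31.7 FPKM) were below PC3-EMT14. Above PC3-EMT14 there were IL8 (204 FPKM), CXCL1 (73.7 FPKM), EPGN (11.2 FPKM) and both AREG entries (81.4 and 75.7 FPKM).

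The next 4 genes were picked for their values from no list. C3, the central complement component, was at 0.205 and 7.196 FPKM, LTB, lymphotoxin beta, at 0.189 and 2.63 FPKM, IL23A at 6.14 and 30.1 FPKM and IDO1 at 1.35 and 4.02 FPKM. NFKBIA (18.4 and 29.4 FPKM), TNFAIP3 (1.85 and 2.45 FPKM) and BIRC3 (2.69 and 4.53 FPKM), a few of the many targets of NF-κB, were within 2-fold. With OVOL2 they stood at 47.0, 6.63 and 10.7 FPKM. Targets of NF-κB were not counted as a set, and activity of the pathway was not tested.

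Hair keratin genes on chromosome 12 (chr12:52679697-52800176 on hg19) need care. KRT86 (29.7 and 132 FPKM), KRT83 (66.0 and 150 FPKM), KRT85 (8.36 and 55.8 FPKM), KRT84 (0.206 and 2.40 FPKM) and KRT82 (0.0617 and 1.90 FPKM) were all higher. Their close paralogue KRT81 was skipped in the OVOL1 and OVOL2 lines and estimated in the other groups (1714 FPKM for PC3-EMT14, 1282 FPKM for PC3-Epi). With OVOL2, KRT86 was at 344 FPKM, while in PC3-Epi it was at 25.7 FPKM. Whether reads of KRT81 were placed on its neighbours was not tested.

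Levels of some genes stood apart between the OVOL lines, each taken from its own table against PC3-EMT14. LITAF, an endosomal protein, was at 0.463 FPKM in PC3-EMT14, 5.10 FPKM with OVOL1 and 0.929 FPKM with OVOL2. HAS2, a hyaluronan synthase, was at 5.95, 2.34 and 6.29 FPKM, and MSMP, a secreted microseminoprotein, at 1551, 1084 and 123 FPKM. ITGB3, an integrin subunit, was at 15.3, 6.72 and 1.98 FPKM, and ITGB4, the hemidesmosome integrin, at 99.4, 209 and 269 FPKM.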
